A study of Homo sapiens with 10 samples.

Results

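The genes described here are 38 regulators and effectors of programmed cell death: the BCL2 family, the caspases, the death receptors with their ligands and adaptors, the inhibitor of apoptosis proteins, and the genes of the apoptosome and of apoptotic DNA cleavage. They were listed by name, and every probe set to which the platform annotation gives exactly 1 symbol was taken where that symbol was on the list. This found 70 of the 12558 human probe sets, for 36 of the 38 genes. RIPK1 and BIRC3 had no such probe set and are not analysed here. Of the 36 genes, 18 were read by 1 probe set and 18 by 2 or more.

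The study set a subline of a human chronic myeloid leukaemia (CML) cell line that withstands cyclophosphamide, a DNA alkylating drug, against the sensitive line itself. The resistant group and the sensitive group hold 5 Affymetrix arrays each, all from cells kept in culture medium, with no drug named for either group. The labels give neither the name of the line nor the way resistance was raised, and the design holds a single subline. Since the labels do not say whether the arrays of a group came from separate cultures, the p-values measure spread among these samples only, and that spread may be technical.

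Apoptosis runs along a pair of routes. In the mitochondrial route, BH3-only proteins free BAX and BAK1 from the anti-apoptotic BCL2 proteins, the outer membrane becomes permeable, and cytochrome c builds the apoptosome with APAF1 and caspase 9. In the receptor route, ligands such as FASLG and TNFSF10 engage death receptors, and FADD brings caspase 8 or 10 to them. CML cells carry the BCR-ABL kinase, which is known to raise BCL2L1 through STAT5.

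The values are MAS5 signals, 1 intensity per probe set and array on a linear scale. The groups were compared with limma on log2(signal + 114.8) over all 12558 probe sets, and a probe set was called at a Benjamini-Hochberg adjusted p under 0.05. Differences are resistant minus sensitive, and a pseudocount of this size makes them understate the change of dim probe sets. A probe set counts as above background on an array where it exceeded the 95th percentile of 32 negative controls, a limit between 319.7 and 739.8. Precision is bounded by there being 5 arrays a group, signals of different probe sets cannot be compared with each other, and in bulk RNA fewer cells of a type and less RNA per cell cannot be told apart.

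Between 50.96% and 61.28% of the probe sets lay above the limit on resistant arrays, and between 52.72% and 59.14% on sensitive arrays. PTPRC, the common leukocyte antigen CD45, was above the limit on all 10 arrays, whereas MPO, an enzyme of granulocyte precursors, was above it on 2 resistant arrays and 1 sensitive array. The summed signals of several lists of cell type markers differed between the groups, and in some of these lists 1 gene carried most of the gap. Of 19 measured granulocytic markers, 13 fell and 0 rose, and their summed signal was 5079 to 9329 on resistant arrays, against 241831 to 530886 on sensitive arrays. On resistant arrays 11 of the 19 never exceeded the limit. Of 14 erythroid markers, 6 rose and 0 fell, with a summed signal of 43864 to 61825 on resistant arrays, against 17101 to 27870 on sensitive arrays. Of 9 megakaryocytic markers 1 rose, ITGA2B (platelet integrin alpha IIb, log2 difference 3.40, limma adjusted p = 1.8e-06). Their summed signal was 12903 to 20646 on resistant arrays, against 1820 to 3682 on sensitive arrays. ITGA2B, with means of 13396 in resistant and 1169 in sensitive cells, carries most of that gap. The median log2 difference of the 9 was 0.12, and 6 of them never exceeded the limit on any array. Of 9 leukocyte and myeloid markers CD38 rose and CSF2RB fell, with sums of 11387 to 15454 on resistant and 16724 to 29459 on sensitive arrays. CSF2RB, with means of 5198 in resistant and 13144 in sensitive cells, carries most of that gap. Of 6 fibroblast and endothelial markers LUM fell, and the sums were 739 to 1581 on resistant and 1405 to 3012 on sensitive arrays. LUM, with means of 237 in resistant and 1302 in sensitive cells, carries that gap. No call was made among the measured monocytic (9), T and NK cell (11), B cell (7) or epithelial (6) markers. These shifts lie along the same groups as every difference given here, and their part in the results was not tested.

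Of the 70 probe sets, 6 were called, 3 higher and 3 lower in resistant cells. This is 8.57%, against 7.41% of all probe sets tested (4.42% called higher and 2.99% called lower), a share near the background. The called probe sets belong to 5 genes. BCL2L1, TNFSF10 and CRADD were higher, BIK and CASP1 were lower, and 31 genes had no called probe set. The groups did not overlap for 6 of the 70 (8.57%, against 8.5% of all probe sets), and these were the called ones. Of the 58 that lay above the limit on at least 3 arrays of a group, 5 were called (8.62%), against 11.5% of all 7345 such probe sets. At an unadjusted limma p under 0.05 stood 17 of the 70 (24.3%), against 17.9% of all probe sets. The median log2 difference of the 70 was 0.16, against 0.03 for all 12558, and 49 of them differed by less than 0.5.

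**Figure D1:**
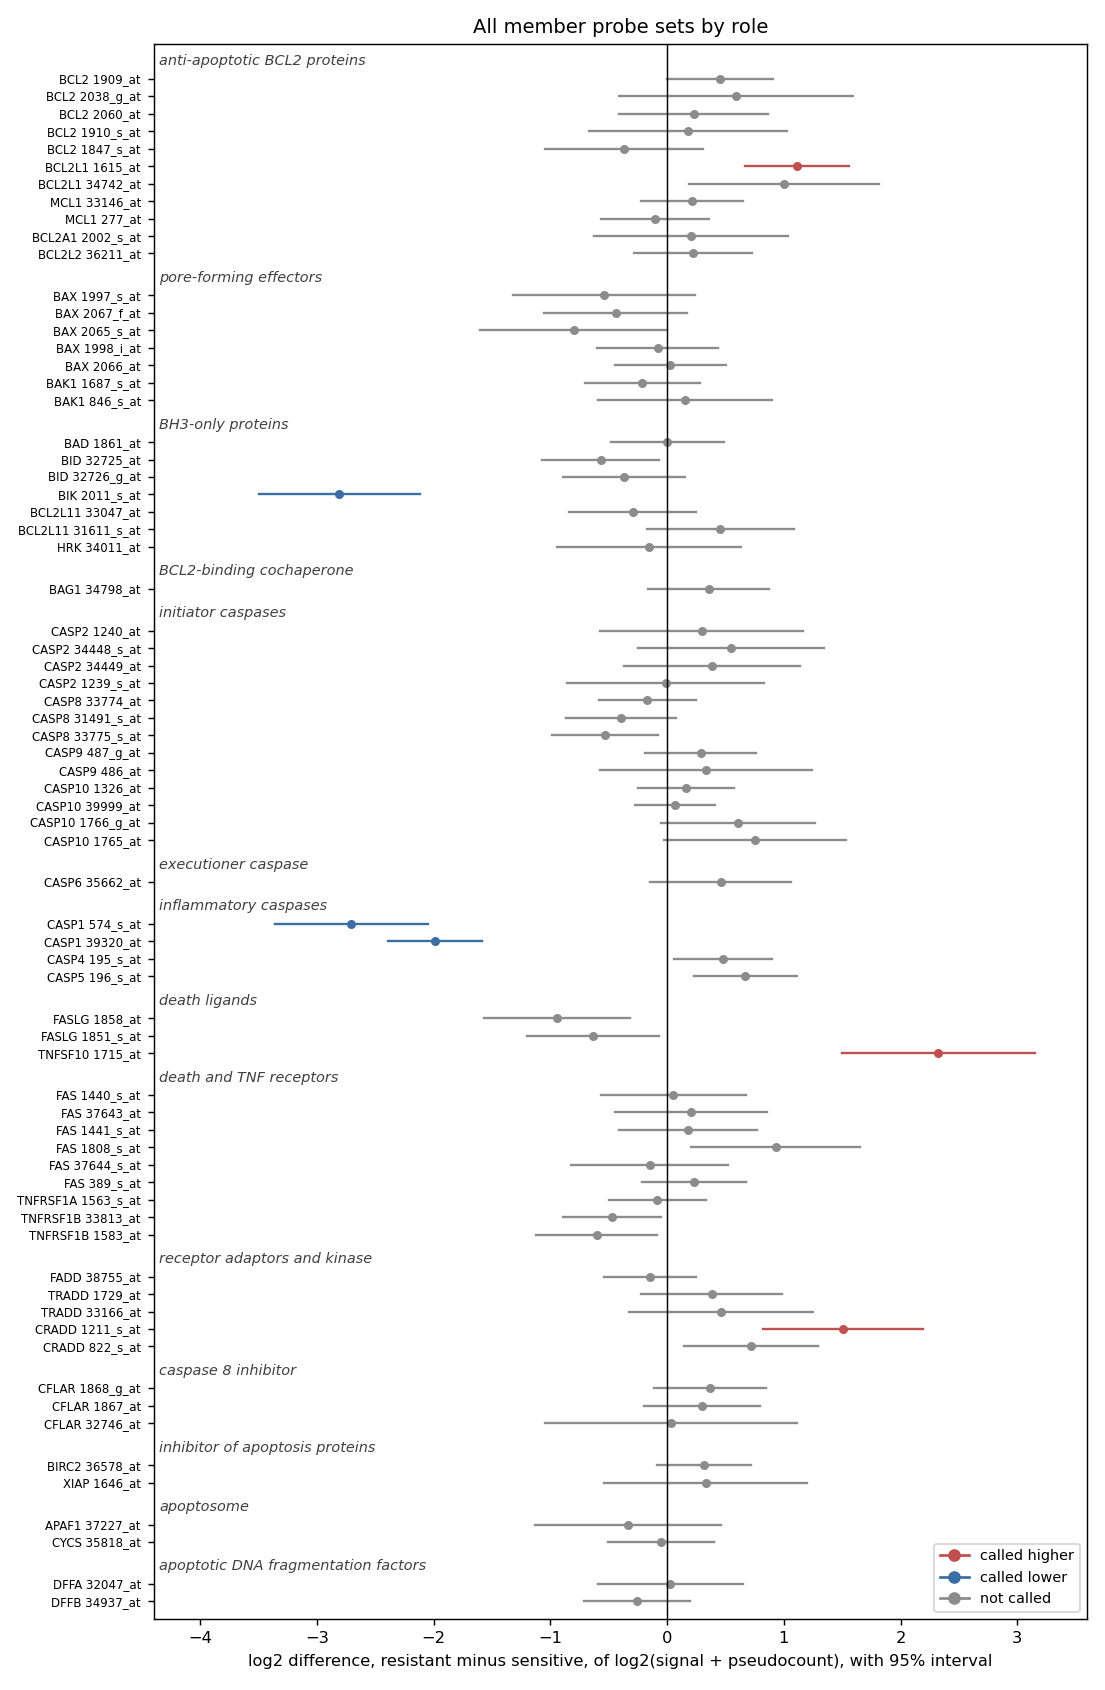
Log2 difference, resistant minus sensitive, of log2(signal + 114.8) for each of the 70 probe sets, grouped by the role of the gene. Points are limma estimates, bars are 95% intervals, and colour marks the 3 probe sets called higher, the 3 called lower and the 64 not called. The called ones are BCL2L1 1615_at, TNFSF10 and CRADD 1211_s_at on the right and BIK and the pair for CASP1 on the left.

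Promoters are shown for the 3 called genes that had a reference promoter sequence, with short motifs searched on both strands. These are the 3 that rose, whereas BIK and CASP1 had no such sequence. The sequences come from RefSeq (GRCh38.p14) and run from 250 bases before to 50 bases after a transcript start, 5′ to 3′ on the gene's strand. The table held 31 of the 38 genes, and 3 of the 5 called ones. Capitals mark matches to 4 motifs or to their reverse complements, which did not overlap in the windows shown. The GC box was searched as GGGCGG. Sites for GATA factors, which direct erythroid genes, were searched as AGATAA. Sites for STAT factors, which cytokine receptors and BCR-ABL activate, were searched as TTCNNNGAA. The core of the interferon-stimulated response element was searched as GAAA followed by any 2 bases and the same 4 letters once more. Where a gene had several starts, the window with the most matches is shown.
TNFSF10, chr3:172523381-172523680, minus strand: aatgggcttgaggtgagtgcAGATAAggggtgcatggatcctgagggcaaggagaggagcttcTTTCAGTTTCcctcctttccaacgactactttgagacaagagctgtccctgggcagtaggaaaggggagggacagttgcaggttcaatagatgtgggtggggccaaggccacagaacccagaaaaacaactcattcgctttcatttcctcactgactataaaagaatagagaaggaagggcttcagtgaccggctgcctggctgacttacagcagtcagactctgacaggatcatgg
BCL2L1, the second listed start, chr20:31722819-31723118, minus strand: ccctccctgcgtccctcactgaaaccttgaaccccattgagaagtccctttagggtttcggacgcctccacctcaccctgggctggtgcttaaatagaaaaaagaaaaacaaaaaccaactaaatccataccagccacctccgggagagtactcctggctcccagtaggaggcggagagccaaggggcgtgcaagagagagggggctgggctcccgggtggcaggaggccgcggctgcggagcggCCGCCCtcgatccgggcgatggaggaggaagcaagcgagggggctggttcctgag
CRADD, the second listed start, chr12:93677321-93677620, plus strand: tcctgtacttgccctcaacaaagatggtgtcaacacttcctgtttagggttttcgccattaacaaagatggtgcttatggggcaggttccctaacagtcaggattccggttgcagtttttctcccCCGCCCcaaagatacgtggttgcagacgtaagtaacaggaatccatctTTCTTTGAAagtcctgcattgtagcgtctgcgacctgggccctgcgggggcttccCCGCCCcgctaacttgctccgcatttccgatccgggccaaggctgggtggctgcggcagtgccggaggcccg
The TNFSF10 window held an interferon response core, as its reverse complement, and a GATA match. The BCL2L1 window held 1 GC box and no STAT match, and the CRADD window held a STAT match and 2 GC boxes. The interferon response core of CRADD lay in the window of another start, which is not shown. Of all 35116 promoters in the table, 3.6% held the interferon response core, 10.3% the GATA motif, 7.7% the STAT motif and 45.0% the GC box. Among the 53 promoters of the listed genes the shares were 17.0%, 11.3%, 7.5% and 66.0%, in the same order. The 9 promoters with the interferon response core belong to BCL2A1, CASP8, CASP5, FASLG, TNFSF10, TNFRSF1B, CRADD and RIPK1, of which TNFSF10 and CRADD were called. The share of G and C was 51.0% for TNFSF10, 61.3% for BCL2L1 and 56.0% for CRADD, against a median of 58.7%. These matches describe the letters in the windows only.

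Among the anti-apoptotic BCL2 proteins, which hold BAX and BAK1 in check, BCL2L1 (BCL-XL) rose in resistant cells. BCL2L1 probe set 1615_at read 2579, 2286, 2714, 2506 and 2952 on resistant arrays 1 to 5, against 721, 1098, 1592, 1267 and 1182 on sensitive arrays 1 to 5. Every resistant array lay above every sensitive one, and all 10 were above background. The means were 2607 ± 248 in resistant and 1172 ± 314 in sensitive cells (SD, n = 5 each), a log2 difference of 1.11 (SE 0.20, limma adjusted p = 0.0047). The other BCL2L1 probe set, 34742_at, read 2031, 1099.8, 1545, 2612 and 2368 on resistant arrays, against 304, 755, 1787, 899 and 1187.5 on sensitive arrays. Its groups overlapped, since sensitive array 3 was brighter than 2 of the resistant ones. It differed by a similar 1.00 (SE 0.37), but this did not pass the test (limma adjusted p = 0.160).

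No other anti-apoptotic member was called. BCL2, the founding member of the family, was read by 5 probe sets with differences between -0.37 and 0.59. Its brightest, 1909_at, averaged 3083 ± 549 in resistant and 2248 ± 512 in sensitive cells (limma adjusted p = 0.285). MCL1, a short-lived family member needed by many blood cells, averaged 4913 ± 1115 and 4169 ± 567 on 33146_at in resistant and sensitive cells, and its probe sets differed by 0.21 and -0.10. BCL2L2 (BCL-w) differed by 0.22, with a 95% interval from -0.28 to 0.73. BCL2A1, an NF-kB target in leukocytes, was below background on all 10 arrays.

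The pore-forming effectors BAX and BAK1 had no called probe set. The 5 BAX probe sets differed by -0.80, -0.54, -0.44, -0.08 and 0.03. For 3 of them resistant array 1 stood far below the other resistant arrays. BAX 1997_s_at read 828, 3655, 3214.5, 2481 and 3443 on resistant arrays, against 4670.4, 3348, 2549, 3762 and 4087 on sensitive arrays. Without resistant array 1 these differences came to -0.41, -0.18 and -0.21 for 2065_s_at, 1997_s_at and 2067_f_at. That array was the lowest of its group for 25.7% of the 70 probe sets and for 25.7% of all probe sets. Probe sets with the suffixes _s, _f and _i can share probes with each other or with other transcripts. This holds for those of BAX and also for BIK 2011_s_at, CASP1 574_s_at, CASP4 195_s_at, CASP5 196_s_at and both CRADD probe sets. Which probes are shared was not examined, so they need not be independent readings. BAK1 differed by -0.21 and 0.15.

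The BH3-only proteins, which start the mitochondrial route, held the largest absolute log2 difference of the 70 probe sets in the main fit. This was that of BIK, but with the pseudocount halved CASP1 574_s_at differed by more (-3.22, against -3.16 for BIK). BIK, a BH3-only protein of the endoplasmic reticulum membrane, read 40.2, 229, 58, 423 and 208 on resistant arrays, against 1949, 2068, 1734, 1501.5 and 1892 on sensitive arrays. All 5 resistant arrays were below background and all 5 sensitive arrays above it. The means were 192 ± 155 in resistant and 1829 ± 219 in sensitive cells, a log2 difference of -2.81 (SE 0.32, limma adjusted p = 0.00012). Set against the background limit, BIK was at least 3.43-fold lower in resistant cells.

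The other BH3-only genes were not called. BID, which caspase 8 cleaves to link the receptor route to mitochondria, averaged 9527 ± 1603 in resistant and 14523 ± 4018 in sensitive cells on 32725_at. The difference was -0.57 with a 95% interval from -1.08 to -0.07 (limma adjusted p = 0.205), and 32726_g_at differed by -0.37. BAD, which growth factor signalling holds inactive by phosphorylation, had a 95% interval of the difference from -0.49 to 0.49. BCL2L11 (BIM), a BH3-only protein whose loss protects CML cells from BCR-ABL inhibitors, differed by -0.30 on 33047_at and 0.46 on 31611_s_at. The first was above background on 3 resistant and 5 sensitive arrays, the second on 3 resistant and 2 sensitive arrays. HRK differed by -0.15 and was above background on only 2 arrays of each group. BAG1, a cochaperone that binds BCL2, differed by 0.36.

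**Figure D2:**
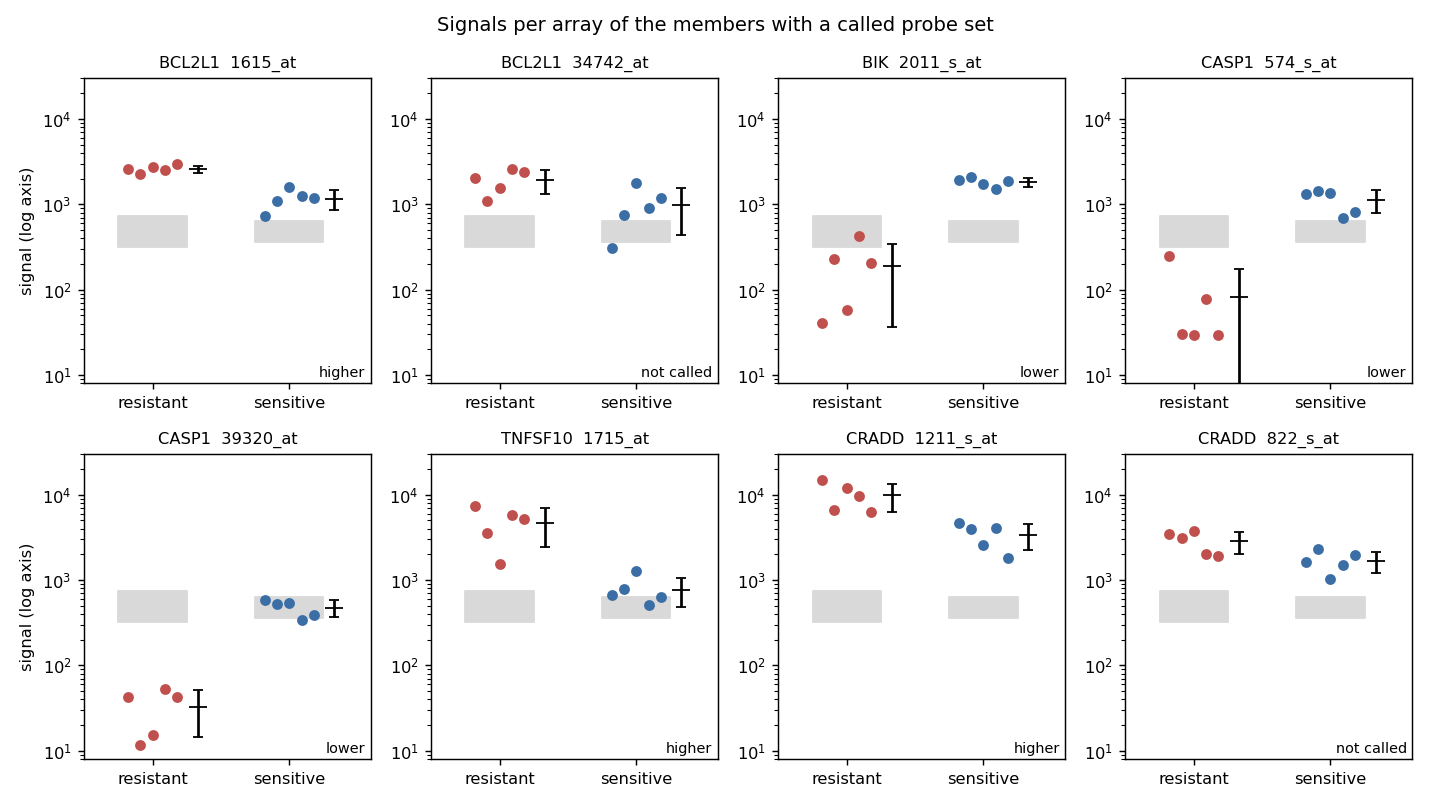
Signal on each array, on a log axis, for the 5 genes with a called probe set, including the uncalled second probe sets of BCL2L1 and CRADD. Points are single arrays in replicate order, resistant left of sensitive, black bars are means ± SD (running off the axis where the SD exceeds the mean), and grey boxes span the background limits of the group's arrays. BIK and both CASP1 probe sets lie in or below the grey box on all resistant arrays, and the 3 probe sets called higher lie above it there.

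The inflammatory caspases, which cut interleukin precursors and gasdermin D rather than driving apoptosis, are CASP1, CASP4 and CASP5. CASP1 fell on both of its probe sets. CASP1 574_s_at read 246, 30.4, 29.8, 76.9 and 29.8 on resistant arrays, against 1340.1, 1421, 1362, 693 and 815 on sensitive arrays. The groups did not overlap, and the probe set was below background on all 5 resistant arrays and above it on all 5 sensitive arrays. The log2 difference was -2.71 (SE 0.30, limma adjusted p = 0.00011), and CASP1 was at least 2.035-fold lower against the background limit. The dimmer CASP1 39320_at read 42.7, 11.6, 15.1, 52.3 and 42.1 on resistant arrays, against 585, 528, 536, 343 and 386 on sensitive arrays. It too did not overlap, with a log2 difference of -1.99 (SE 0.18, limma adjusted p = 2.8e-05), but only 2 sensitive arrays were above background, so no bound is given.

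CASP4, CASP5 and CASP1 follow each other on chromosome 11 with no other protein-coding gene between them. CASP4 and CASP5, each read only by a probe set with the suffix _s, were not called. CARD16, the next protein-coding gene on the other side of CASP1, was not examined. CASP4, a sensor of bacterial lipopolysaccharide, averaged 4168 ± 660 in resistant and 2968 ± 535 in sensitive cells, a difference of 0.48 (limma adjusted p = 0.199). CASP5 read 183, 89.5, 229, 206 and 229 on resistant arrays, against 72.7, 81.9, 41.3, 122 and 50.5 on sensitive arrays. All 10 values were below background and the groups overlapped. The difference was 0.67 (limma adjusted p = 0.0732).

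Among the initiator and executioner caspases no probe set was called. CASP8, the initiator of the receptor route, differed by -0.17, -0.40 and -0.53. Its 33775_s_at averaged 548 ± 54.7 in resistant and 867 ± 233 in sensitive cells (limma adjusted p = 0.190). It was above background on 2 resistant arrays and on all 5 sensitive arrays. Leaving out sensitive array 5, the lowest of its group, brought it to a limma adjusted p of 0.0327. That array was the sensitive one nearest the resistant values, so this lower p adds no support. In 16 of 17 other runs of the fit CASP8 33775_s_at was not called (limma adjusted p up to 0.347). CASP10, a close relative next to CASP8 on chromosome 2, differed by 0.07 to 0.61 on 3 probe sets and by 0.75 on 1765_at, which was below background on all 10 arrays. CASP9, the apoptosome caspase, differed by 0.29 and 0.33, and CASP6, an executioner, by 0.46 (limma adjusted p = 0.444). CASP2, an initiator linked to DNA damage and mitosis, differed by -0.01 to 0.55 on 4 probe sets. Resistant array 1 was the lowest resistant array on all 4, and without it the CASP2 differences were 0.36 to 0.84, none called.

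**Figure D3:**
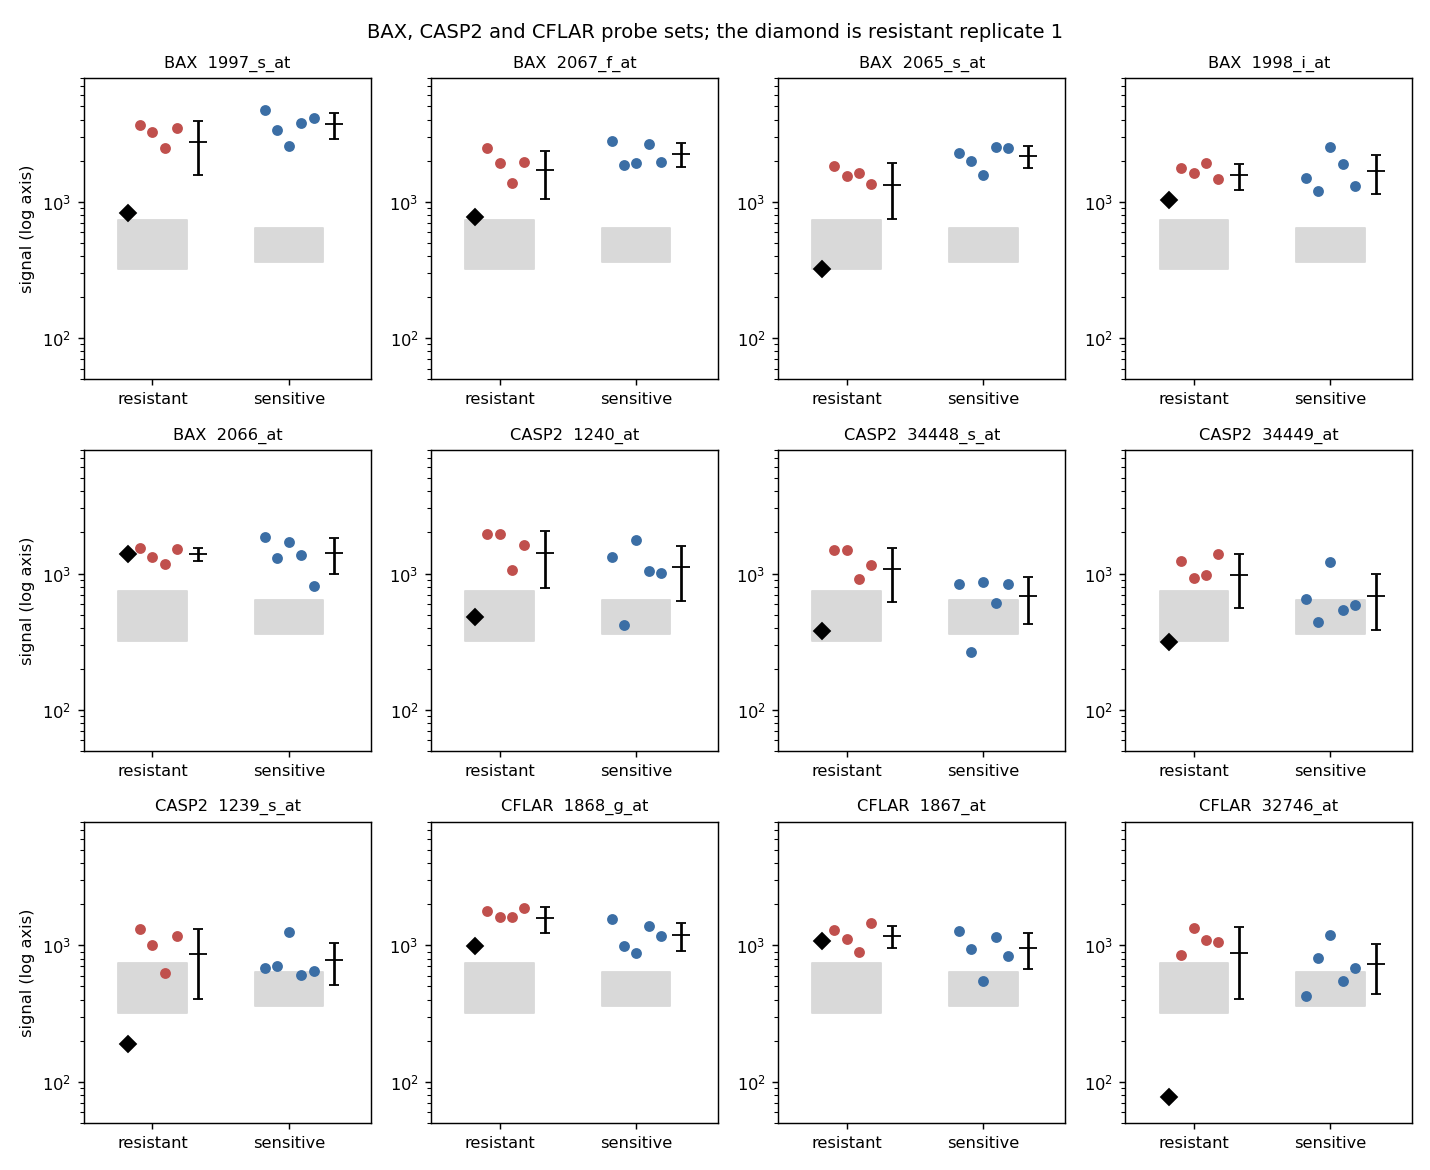
Signal per array, on a log axis, for the 12 probe sets of BAX, CASP2 and CFLAR, resistant left of sensitive. Points are arrays, the black diamond is resistant array 1, black bars are means ± SD and grey boxes span the background limits. The diamond lies apart below the other resistant arrays for BAX 1997_s_at, 2067_f_at and 2065_s_at, for CASP2, and for CFLAR 1868_g_at and 32746_at.

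TNFSF10 (TRAIL), the ligand of a family of death receptors and an interferon-induced gene, rose in resistant cells. TNFSF10 1715_at read 7432, 3557, 1561, 5817.5 and 5153 on resistant arrays, against 675, 793, 1273.5, 511 and 626 on sensitive arrays. The groups did not overlap, although resistant array 3 came close to sensitive array 3, and 4 of the 5 sensitive arrays were above background. The means were 4704 ± 2240 and 776 ± 296 in resistant and sensitive cells, a log2 difference of 2.32 (SE 0.38, limma adjusted p = 0.0021). Of 24 interferon-induced genes, 4 rose (IFI44, IFIT1, IFIT3 and IFI16), 1 fell (MX2) and the rest were not called. Their summed signal was 71667 to 92370 on resistant arrays, against 45223 to 67758 on sensitive arrays. The uncalled IFITM1, with means of 29314 in resistant and 16312 in sensitive cells (limma adjusted p = 0.0526) and overlapping groups, carries much of that gap. The part of these genes in the TNFSF10 difference was not tested.

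FASLG, the ligand of FAS, was above background on 1 of 10 arrays on 1858_at and on none on 1851_s_at. FASLG 1858_at read 90.3, 49.7, 45.3, 159 and 80.5 on resistant arrays, against 540.4, 294, 260.0, 257 and 89.6 on sensitive arrays. Sensitive array 5 lay among the resistant ones. The difference was -0.94 (limma adjusted p = 0.0738), and without that array the limma adjusted p was 0.0146. Since that array was the one that went against the difference, this lower p adds no support. In 15 of 16 other runs of the fit FASLG 1858_at was not called (limma adjusted p up to 0.159).

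No receptor among the 38 listed genes was called. FAS, the receptor for FASLG, was read by 6 probe sets that differed by -0.15 to 0.93. FAS 1808_s_at, at the upper end, averaged 681 ± 327 in resistant and 302 ± 154 in sensitive cells (limma adjusted p = 0.138), and was above background on 4 resistant arrays and 1 sensitive array. TNFRSF1A, the main receptor for tumour necrosis factor, differed by -0.09 (limma adjusted p = 0.887). TNFRSF1B, the second such receptor, which lacks a death domain, differed by -0.47 and -0.60. Its 33813_at averaged 2525 ± 484 in resistant and 3536 ± 538 in sensitive cells (limma adjusted p = 0.203).

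Of the adaptors, CRADD (RAIDD), which joins CASP2 to its activating platform, rose in resistant cells. CRADD 1211_s_at read 14785, 6715, 11953, 9814 and 6227 on resistant arrays, against 4676, 3992, 2563, 4038 and 1797 on sensitive arrays. Every resistant array was brighter than every sensitive one. The means were 9899 ± 3596 in resistant and 3413 ± 1189 in sensitive cells, a log2 difference of 1.51 (SE 0.31, limma adjusted p = 0.0108). CRADD 822_s_at read 3489, 3112, 3740.5, 2026 and 1904 on resistant arrays, against 1631, 2307, 1028.5, 1498 and 1947 on sensitive arrays. Here the groups overlapped, and the difference of 0.72 (SE 0.26) did not pass the test (limma adjusted p = 0.148). CASP2, its partner, had no called probe set.

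FADD, the adaptor of FAS and of the TRAIL receptors, differed by -0.14, with a 95% interval from -0.54 to 0.25. TRADD, the adaptor of TNFRSF1A, differed by 0.38 on 1729_at and by 0.46 on 33166_at, which was below background on all 10 arrays. CFLAR (FLIP), which blocks caspase 8 at the receptor, differed by 0.37, 0.30 and 0.03. Without resistant array 1 these CFLAR values were 0.51, 0.32 and 0.56, and none was called.

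The inhibitor of apoptosis proteins and the late steps also had no call. BIRC2 (cIAP1), a ubiquitin ligase at the TNF receptor, differed by 0.31 (limma adjusted p = 0.422). XIAP, which inhibits caspases directly, and APAF1, the scaffold of the apoptosome, were below background on all 10 arrays. CYCS, cytochrome c, averaged 43665 ± 9851 in resistant and 44997 ± 8055 in sensitive cells, a difference of -0.05 with an interval from -0.50 to 0.40. DFFA, the inhibitor and chaperone of the apoptotic nuclease, differed by 0.03, and DFFB, the nuclease itself, by -0.26.

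**Figure D4:**
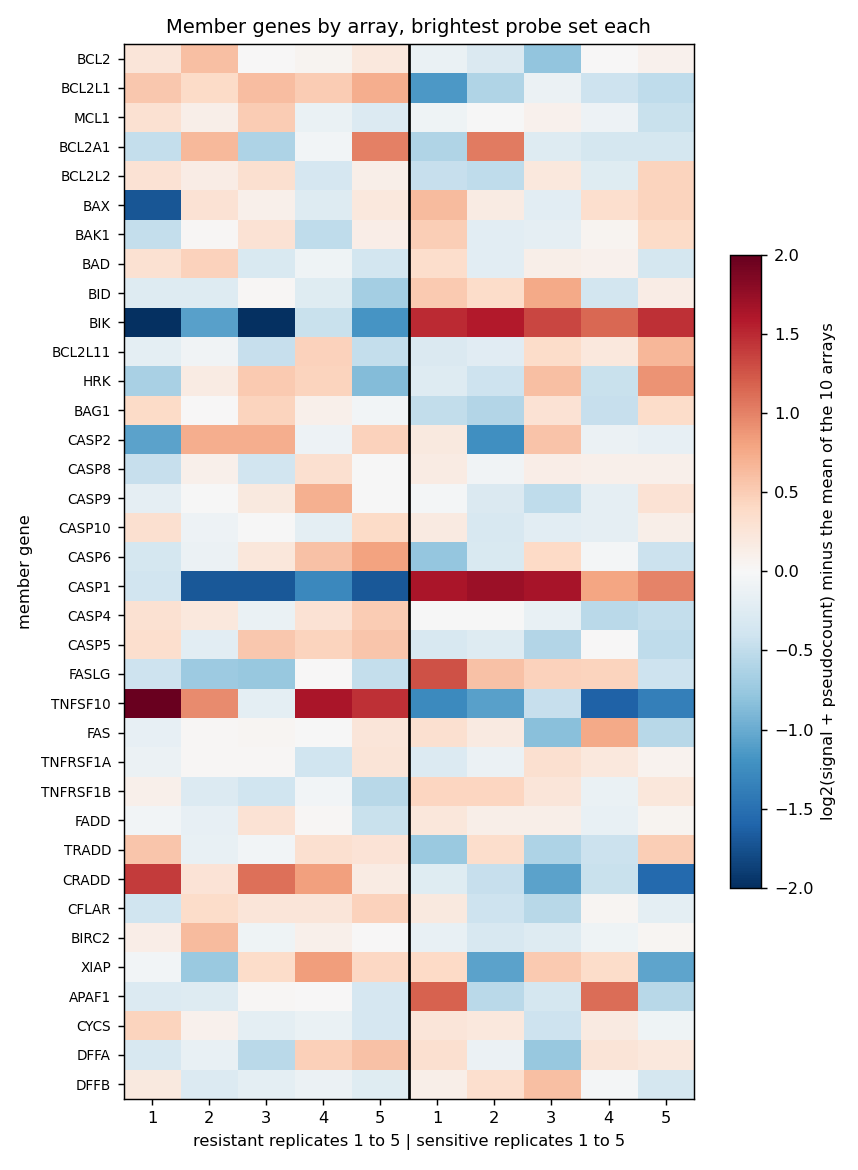
Each of the 36 genes by its brightest probe set on each array: colour shows log2(signal + 114.8) minus the mean of the 10 arrays, from -2 to 2, with resistant replicates 1 to 5 left of sensitive replicates 1 to 5. BIK and CASP1 are blue on all resistant arrays and red on all sensitive arrays, CRADD is red and TNFSF10 mostly red on resistant arrays, and in most other rows the colours of the groups mix.

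Where a gene had several probe sets, they shared the sign of the difference for 11 of 18 genes and split for 7. CASP1 alone had more than 1 called probe set. For BCL2L1 and CRADD the uncalled probe set pointed the same way as the called one. For each of the 6 called probe sets the call held in all 17 other runs of the fit in which it was tested, and CASP1 39320_at was tested in 16 of them.

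Of 96 further genes of the apoptosis machinery, listed apart from the 38, 67 were measured, each by its brightest probe set. Of these 4 rose, 3 fell and 60 were not called, against 8.4% called among all 8226 genes, and the median difference was 0.01 against 0.03. The genes that rose were TNFRSF21 (death receptor 6, 1.21), DAPK1 (a calmodulin-dependent death kinase, 1.18), HTRA2 (a mitochondrial protease that antagonises XIAP, 0.87) and PEA15 (a death effector domain protein, 0.85). Those that fell were BNIP3 (a hypoxia-induced mitochondrial BCL2-family relative, -2.01), TAX1BP1 (an autophagy receptor that restrains TNF signalling, -0.90) and RIPK2 (the kinase of the NOD receptors, -0.79).

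BNIP3 read 1660.2, 1521, 1247.5, 2701 and 2348 on resistant arrays, against 16237, 9396, 3362, 5009 and 10263 on sensitive arrays (limma adjusted p = 0.0067). The groups did not overlap. TAX1BP1 averaged 7195 ± 753 in resistant and 13466 ± 1213 in sensitive cells (limma adjusted p = 0.004), and both of its probe sets were called. HTRA2 averaged 6483 ± 929 in resistant and 3529 ± 748 in sensitive cells (limma adjusted p = 0.0153). TNFRSF21 averaged 789 ± 175 in resistant and 295 ± 165 in sensitive cells (limma adjusted p = 0.016), and only 1 sensitive array was above background. Of 17 other settings of the fit, the call of HTRA2 ended under 1 (limma adjusted p up to 0.0557) and that of DAPK1 under 4 (up to 0.058). The call of RIPK2 ended under 8 (up to 0.0888) and that of PEA15 under 9 (up to 0.173), the replicate block among them for both.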

How the data were processed

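The deposited values are MAS5 signals, an intensity per probe set and array on a linear scale, per the submitters' processing notes; its version and settings are not given in the sources read. Their 2% trimmed means lay between 2501.33 and 2501.51, so the authors had already scaled them. The table holds 12625 probe sets; 67 controls were left out. Names came from the platform annotation, updated by Entrez identifier to the RefSeq gene table: 10943 probe sets had 1 symbol, 545 several and 1070 none. Arrays were set to a common trimmed mean, and log2(signal + 114.8), the 20th percentile of all signals being the pseudocount, was fitted with limma 3.58.1 in R 4.3.3 (lmFit, eBayes, no covariate), with Benjamini-Hochberg adjustment over 12558 probe sets. The fit was tested on simulated data. Groups and replicate numbers came from the sample titles.

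The genes, lists, background limit and tests were chosen with earlier results of these data known. All array values were to be given for called probe sets, for the other probe sets of called genes and for those whose groups did not overlap; those of BAX 1997_s_at, CASP5, FASLG 1858_at and BNIP3 were added after their values were seen. For a bound, each dim array was raised to its limit where its signal was below it, and the group means of log2 signal were then compared. Alternatives were median and quantile scaling, other pseudocounts, a filter on low signals, an intensity trend, a replicate block, leaving out each array, and, for the further genes, the mean of all probe sets.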

Additional observations from a re-analysis of the deposited data

Results flagged for a closer look

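In 10 of the 140 groups of 5 arrays tested over the 70 probe sets, 1 array stood apart from the other 4. The measure was Dixon's ratio of the array's gap to the group's range, with 0.71 as the limit. Ratios were taken on log2(signal + 114.8), whereas the signals given beside them are linear and would give other ratios. Chance flags about 1 in 20 groups if values are normally spread and groups independent. Probe sets of the same gene need not be independent. Resistant array 1 was lowest for BAX 1997_s_at (ratio 0.731; 828 against 2481 to 3655), BAX 2065_s_at (0.811; 323 against 1341 to 1813), CFLAR 1868_g_at (0.744; 992 against 1602 to 1882) and CFLAR 32746_at (0.797; 78 against 852.5 to 1343). Resistant array 4 was highest for CASP8 31491_s_at (0.714; 1552 against 678 to 866) and FAS 1441_s_at (0.787; 1021.5 against 443 to 534.5). Resistant array 5 was lowest for BCL2 1910_s_at (0.941; 162 against 915 to 1003), and resistant array 2 for CASP5 196_s_at (0.721; 89.5 against 183 to 229, all below background). Sensitive array 3 was highest for CASP2 1239_s_at (0.798; 1242 against 607 to 705), and sensitive array 2 for BCL2A1 2002_s_at (0.785; 282 against 12.6 to 47.8, all below background). No called probe set was among these, and no explanation was tested.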

How the results depend on the processing

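None of the 6 called probe sets of the listed genes lost its call under any of the 17 alternatives in which it was tested, and CASP1 39320_at was left out by the filter on low signals. The number called lower was 3 in the main fit, and 3 to 5 when single arrays were left out. It was 2 under the filter on low signals, which removed CASP1 39320_at. It was 5 without sensitive array 5, where CASP8 33775_s_at and FASLG 1858_at joined, and CASP5 was called without resistant array 2 (adjusted p = 0.0292). For each of these probe sets the array left out was the one of its group nearest the other group. Leaving out resistant array 1 turned the sign of BAX 1998_i_at, to 0.049 against -0.08, and of CASP2 1239_s_at, to 0.36 against -0.01. Among the further apoptosis genes, 1 in place of 4 was called higher under common median scaling, and 2 to 4 when single arrays were left out (2 without resistant array 1, resistant array 5 or sensitive array 1). The number called lower was 3 in the main fit. It was 4 under median and quantile scaling, the filter on low signals and the intensity trend, and 2 in some runs without 1 array. The cause of these changes was not tested. With the replicate number as a block, 3 listed probe sets were higher and 3 lower, and 3 further genes were higher and 3 lower. RIPK2 lost its call there (limma adjusted p = 0.0888), so these lower genes were not the same set as in the main fit. Same-numbered arrays shared little of their deviations from the group means (correlations 0.0377, 0.0217, 0.123, 0.00865 and 0.0412), and only 1 of 5 resistant arrays matched its own number best, so the numbers were not taken as pairs. Over all probe sets, 428 to 674 were called higher and 263 to 491 lower across settings. Common median scaling put the median difference of all probe sets at -0.07, against 0.03, and called 438 higher and 423 lower, against 555 and 376. Signals near the background limit restrict what can be said of BCL2A1, HRK, CASP5, FASLG, XIAP and APAF1.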
